A study of Homo sapiens with 5 samples.

Results

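The hg19 set of sequences used for mapping holds, beside the chromosomes, contigs of 2 kinds, and BG4 peaks on them are described here. A peak was a member when its contig was not chromosome 1 to 22, X, Y, the mitochondrial genome or GL000220.1, which gave 580 of the 14572 peaks of the series (3.98%). Of these, 151 peaks lay on 19 unlocalised or unplaced contigs (GL000191 to GL000249) and 429 on 78 patch or alternate contigs (all other names). The peaks come from LNCaP, an established prostate cancer cell line, whose chromatin was fixed with 1% formaldehyde, sonicated to 100 to 500 bp and pulled down with BG4. The 4 BG4 replicates form 1 group, for which the labels name no treatment, and 1 input sample is the only control. Each replicate has its own list of peaks. No label says that the replicates were separate cultures, so their spread may be technical, and since the series has 1 input, their backgrounds are not independent.

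BG4 is an antibody to G-quadruplexes, structures that guanine-rich DNA strands can fold into. Unlocalised contigs have a known chromosome but no position on it, and unplaced contigs have neither. Many of them hold repeated sequence of which the assembly keeps fewer copies than a genome has, so that reads from many copies can land on the same few bases. Patch contigs are corrections or additions to a chromosome, and alternate contigs are other haplotypes of a stretch that the chromosome already shows, so much of their sequence occurs a second time in the set. How reads with several equal matches were placed is not given in the sources used here. Positions below are 1-based and counted on the contig itself, in the hg19 set. The sequence, genes and repeats of these contigs were not analysed here.

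Members made up 3.66% to 4.87% of a list. The unlocalised and unplaced contigs had 49, 27, 39 and 36 peaks in replicates 1, 2, 3 and 4 (37.8 ± 9.07, SD, n = 4), and the patch and alternate contigs had 198, 58, 102 and 71 (107 ± 63.3, SD, n = 4). The second set of counts followed the length of the lists, which on the chromosomes held 6476, 1640, 3645 and 2144 peaks, while the first changed less. As a share of the list, the unlocalised and unplaced contigs took 0.727% in replicate 1, the longest list, and 1.02% to 1.58% in the others. The patch and alternate contigs took 2.68% to 3.32%.

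The peaks of the 2 contig classes differed in strength and in background, while their widths overlapped. The deposited fold enrichment is the read pile-up at the summit of a peak over the local background, as the authors' caller wrote it. Its median on unlocalised and unplaced contigs stood at 2.24, 1.97, 2.72 and 1.85 in replicates 1 to 4. On patch and alternate contigs it was 6.41, 5.79, 6.25 and 5.80 in the same order. The medians of the classes were apart in every list, while their single peaks overlapped, from 1.3 to 13.7 and 1.32 to 18.7 in replicate 1. Against the chromosomes, where it was 6.41 to 6.73, the second class was lower in 3 lists and equal in 1 (0.922 times, exact sign-flip permutation p = 0.25). The first class reached 0.359 times the median fold of the second (lower in 4 of 4 lists). An exact sign-flip permutation test over the 4 lists, two-sided, gave p = 0.13, from 2 of the 16 sign patterns and the smallest value that 4 lists allow, and p = 0.188 after Benjamini-Hochberg adjustment over the 15 tests between classes. In that set the adjusted value was 0.188 wherever p was 0.13 and 0.313 wherever it was 0.25. No comparison between classes could therefore pass the 0.05 threshold. With −log10 q as the measure of strength the order turned, and the unlocalised and unplaced contigs had 1.31 times the median of the patch and alternate contigs (p = 0.13, exact sign-flip permutation test). Their summits held more reads, with a median of 121, 168, 113 and 159 against 13, 16.5, 13 and 13.

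The local background of a peak was recovered from its deposited fold and −log10 p and is given as a multiple of the genome level, the lowest background of any chromosome peak of that list. On unlocalised and unplaced contigs the median background was 56.3, 142, 55.5 and 117 times the genome level in replicates 1 to 4. On patch and alternate contigs it was 1.07, 1.67, 1.49 and 1.60 times, and on chromosomes 1 to 22, X and Y it was 1.68 to 1.71 times. The ratio between the 2 contig classes was 37.1 at the lowest and 85 at the highest (geometric mean 59.0, higher in 4 of 4 lists, exact sign-flip permutation p = 0.13). Without GL000226.1, the contig of its class with the most peaks, this ratio was 32.0. With 1 input in the series the backgrounds of the lists are not independent, and the p of this ratio counts them as if they were. In the region of GL000205.1 from 87173 to 87961, for example, they were 6.40 to 6.70 times over the 4 lists. Median widths were 333, 320, 323 and 357.5 bp on unlocalised and unplaced contigs and 328, 330.5, 321 and 348 bp on patch and alternate contigs. Their ratio was 0.968 to 1.03 over the lists, above 1 in 3 of 4 (exact sign-flip permutation p = 0.75). Among peaks with a background of 2.5 to under 10 times the genome level, the first class was wider than the second in 4 of 4 lists. Medians were 437, 533, 391.5 and 371 bp over 17, 5, 14 and 8 peaks, against 367, 272, 383.5 and 357.5 bp over 21, 5, 14 and 6. Chromosome medians of that band were 363, 345, 341 and 371 bp. All 14 peaks of GL000205.1 (median width 571.5 bp) lay in this band. The 13 peaks of GL000195.1 (median width 905 bp) had a median background of 5.88 times.

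**Figure D1:**
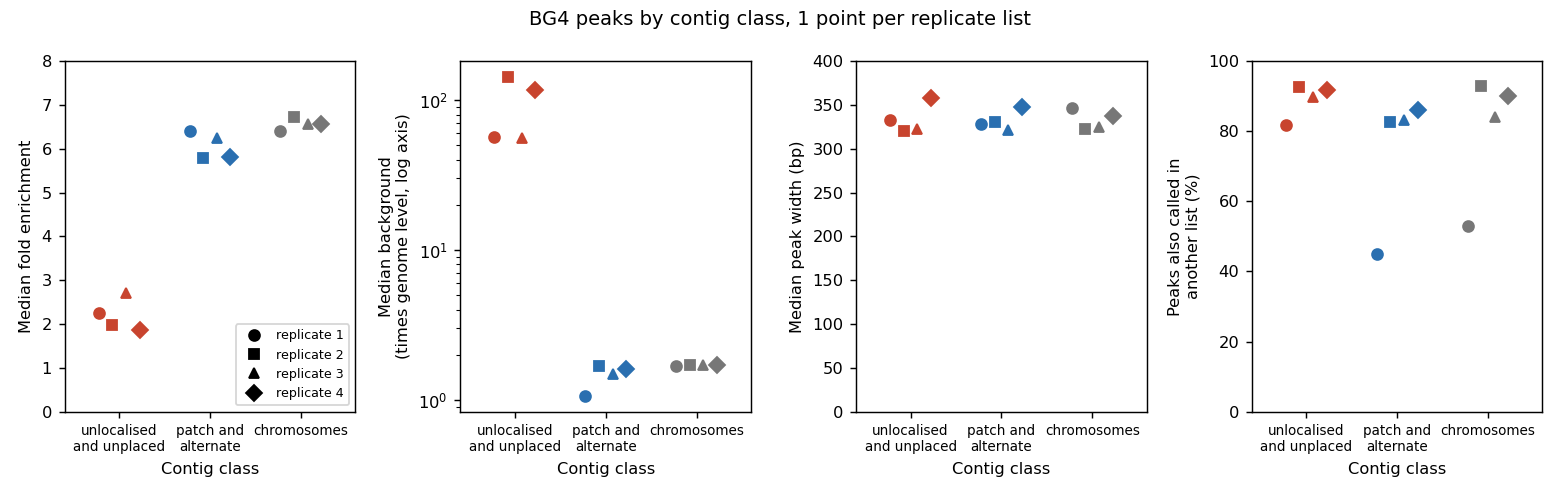
Each panel plots 1 value per replicate list (4 symbols) for the unlocalised and unplaced contigs, the patch and alternate contigs and the chromosomes: median fold, median background in multiples of the genome level (log axis), median width in bp, and percent of peaks also called in another list. The red points lie lowest for fold (1.85 to 2.72) and highest for background (55.5 to 142), while the widths of all classes lie together.

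Within bands of background, the median folds of the classes differed less than over all peaks. Among peaks with a background of 2.5 to under 10 times the genome level, the median fold on unlocalised and unplaced contigs was 5.72, 4.78, 4.40 and 4.78 in replicates 1 to 4 (44 peaks in all), and on patch and alternate contigs it was 5.53, 5.41, 4.96 and 4.42 (46 peaks). The ratio was 0.968 (exact sign-flip permutation p = 0.5), against 0.359 over all peaks. Chromosome peaks of that band had medians of 5.60, 5.79, 5.81 and 5.81. Where the background was at least 50 times that level, the medians were 1.70, 1.85, 1.82 and 1.70 on unlocalised and unplaced contigs (92 peaks), 1.41, 1.8, 1.62 and 1.66 on patch and alternate contigs (43 peaks) and 1.88, 1.87, 1.85 and 1.76 on chromosomes (140 peaks). In this band the first class had 1.09 times the median fold of the second, the reverse of the order over all peaks (exact sign-flip permutation p = 0.13). Of the 43 peaks of the second class there, 29 lay in 1 stretch of JH636052.4, and 5 came from replicate 1. The bands did not make the backgrounds equal. In the higher band the median summit held 184 to 218 reads on unlocalised and unplaced contigs and 323 to 403 on patch and alternate contigs, and in the lower band 20.5 to 29 and 15 to 18. The choice of these bands followed a look at the data. A p threshold admits low folds only where the background is high, so fold and background are tied in any such list.

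**Figure D2:**
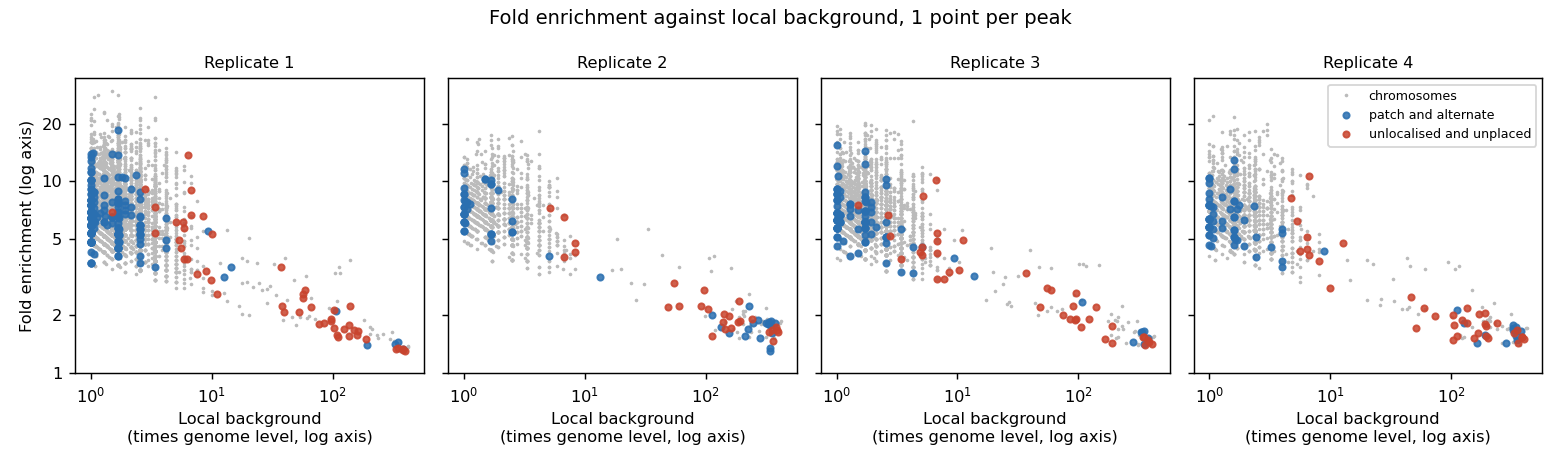
Fold enrichment against local background in multiples of the genome level, both on log axes, with 1 panel per replicate and 1 point per peak. Red and blue points follow the same downward band as the grey chromosome peaks, with most unlocalised and unplaced peaks at its right end, where backgrounds of at least 50 times the genome level go with folds of 1.3 to 2.93 on contigs, and most patch and alternate peaks at its left end.

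The 2 classes were thus spread over overlapping ranges of background in different proportions. At least 50 times the genome level was found for 92 of the 151 peaks on unlocalised and unplaced contigs (60.9%), 43 of the 429 on patch and alternate contigs and 140 chromosome peaks (1.01%). Under 2.5 times were 2 peaks of the first class, on GL000191.1 (fold 6.95 in replicate 1) and GL000223.1 (fold 7.54 in replicate 3), and 336 peaks (78.3%) of the second. A further measure separated patch and alternate contigs from the chromosomes. Their background lay at the genome level itself for 45.5%, 29.3%, 32.4% and 29.6% of peaks in replicates 1 to 4, against 8.89%, 5.49%, 7.49% and 7.46% on chromosomes (26.8 percentage points more on average, higher in 4 of 4 lists, exact sign-flip permutation p = 0.13). No peak of the unlocalised and unplaced contigs lay there. These backgrounds too share 1 input and are not independent over the lists.

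Peaks of high background did not follow the length of the lists. On the 2 contig classes together, 31, 40, 27 and 37 peaks of replicates 1 to 4 had at least 50 times the genome level, and 171, 33, 81 and 53 had under 2.5 times. By class, the counts of high background were 26, 21, 20 and 25 on unlocalised and unplaced contigs, highest in replicate 1, and 5, 19, 7 and 12 on patch and alternate contigs, highest in replicate 2. Of those 19 peaks, 14 lay on JH636052.4. On chromosomes the counts of high background were 25, 40, 36 and 39, lowest in replicate 1. Summits of high background came near the deepest pile-up of a list, that of the mitochondrial genome with 508, 510, 500 and 532 reads. The highest summit on unlocalised and unplaced contigs held 81.8% to 87.2% of that number and the highest on patch and alternate contigs 83.8% to 86.2%. Chromosome summits came nearer still, with 501, 498, 491 and 521 reads at the highest in replicates 1 to 4.

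Peaks per contig were concentrated on few contigs. Over the 4 lists the unlocalised and unplaced contigs had 7.95 peaks per contig with a peak (median 4), and the patch and alternate contigs had 5.5 (median 3). Within a list the means were 2.44 to 3.06 and 1.69 to 2.83. The 5 contigs with the most peaks held 90 of the 151 peaks (59.6%) of the first class and 158 of the 429 (36.8%) of the second. As the classes had 19 and 78 contigs with a peak, these shares do not compare how concentrated the classes were. A single peak was called on 5 of 19 and 27 of 78 contigs, and 9 and 20 contigs had peaks in all 4 lists. Contig lengths were not used here, so these counts say nothing of density.

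**Figure D3:**
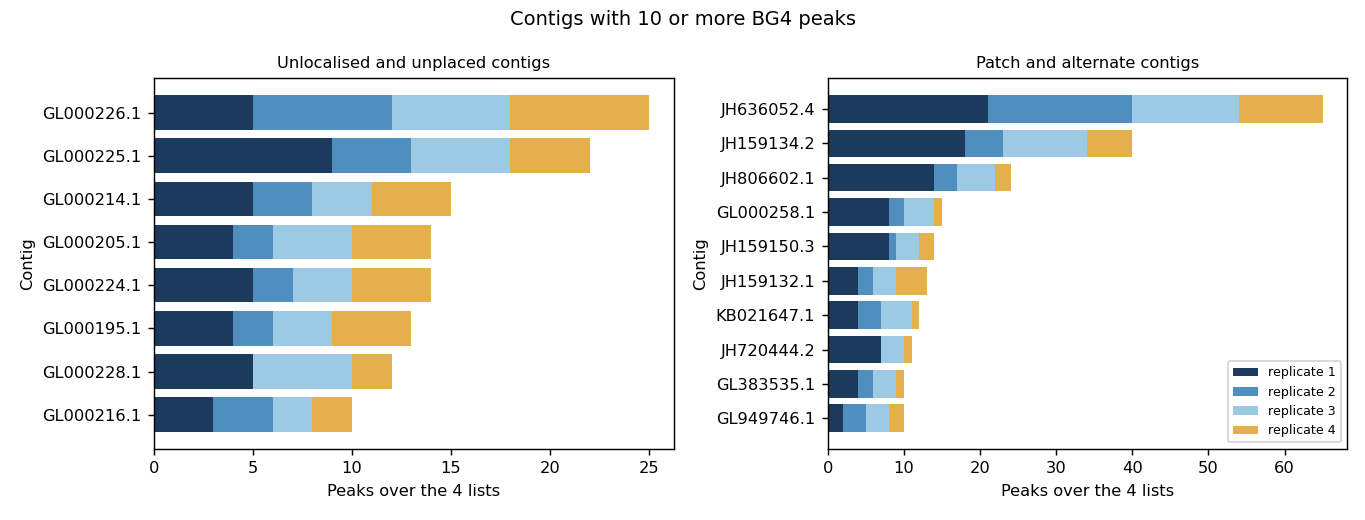
Number of BG4 peaks over the 4 lists (x axis) on each contig with 10 or more (y axis), with the part of each replicate in its own colour. GL000226.1 leads the unlocalised and unplaced contigs with 25 peaks and JH636052.4 the patch and alternate contigs with 65.

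GL000226.1, an unplaced contig, had 25 peaks in 7 regions between 903 and 14858, and the highest background of either class, between 238 and 402 times the genome level. Its folds ran from 1.3 to 1.91. Of its 7 regions, 5 were called in all 4 lists, as were 12.0% of the merged regions of the whole series. Among regions with a median background of at least 50 times the genome level, 14 of 54 on both contig classes and 18 of 52 on chromosomes were. Its region from 3116 to 3544 had folds of 1.34, 1.66, 1.54 and 1.68 in replicates 1 to 4, with 405, 371, 401 and 425 reads at the summit and a background of 346 to 352 times the genome level. In each of the 5 regions replicate 1 had the lowest fold, from 1.3 to 1.34, and those of the other lists lay between 1.42 and 1.73.

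GL000225.1, also unplaced, had 22 peaks in 10 regions, with folds of 1.70 to 3.56 over 36.7 to 138 times the genome level. Its only region called in every list, from 115026 to 115476, had folds of 2.08, 2.21, 2.19 and 1.70. GL000214.1 had 15 peaks in 6 regions and GL000224.1 had 14 in 6, with median folds of 1.71 and 1.87 and median backgrounds of 111 and 113 times the genome level. The region of GL000224.1 from 13691 to 14090 stood at folds of 2.58, 2.22, 2.79 and 2.18 with 86 to 128 reads, over a background of 55.5 to 60.3 times, the lowest on that contig.

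GL000205.1, an unlocalised contig of chromosome 17, held the strongest peaks of its class in 3 of 4 lists. Its region from 87173 to 87961 had folds of 13.7, 6.49, 10.2 and 10.7 (10.3 ± 2.95, SD, n = 4), with 89, 33, 60 and 61 reads at the summit over 6.40 to 6.70 times the genome level. Replicate 1 was highest and replicate 2 lowest. A fold of 13.7 exceeded 96.6% of the chromosome peaks of replicate 1. On the same contig, the region from 84725 to 85764 had folds of 6.61, 4.29, 5.38 and 8.19, here with replicate 4 highest.

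GL000195.1, an unlocalised contig of chromosome 7, had the strongest peak of its class in replicate 2. Its region from 31782 to 33150 had folds of 9.05, 7.28, 8.40 and 6.17 with 29 to 61 reads, and its neighbour from 30517 to 31649 had folds of 5.32, 4.78, 4.92 and 4.76 with 29 to 51 reads. Peaks on this contig were wide, with a median of 905 bp over 13 peaks, and those of GL000205.1 had a median of 571.5 bp over 14. In GL000243.1, unplaced, 1 region from 25589 to 26088 was called in all 4 lists with folds of 6.71, 4.01, 4.89 and 4.43 over 6.42 to 6.83 times the genome level. Unlike these, the remaining regions of the class among the 10 strongest called in all lists had backgrounds of at least 47.8 times, the lowest on GL000225.1. GL000222.1, from 84177 to 84638, had folds of 2.24, 2.03, 2.2 and 2.17 over 136 to 142 times, and GL000216.1, from 75799 to 76145, had folds of 1.5, 1.85, 1.43 and 1.75 over 185 to 193 times.

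By name, the class divides into contigs with and without a known chromosome. The 6 unlocalised contigs had 35 peaks over the 4 lists, with a median fold of 5.14 and a median background of 6.62 times the genome level. The 13 unplaced contigs had 116 peaks with 1.90 and 104 times. Most of the 35 peaks lay on GL000205.1 (14) and GL000195.1 (13). Some unplaced contigs had low backgrounds too, among them GL000218.1, GL000219.1, GL000241.1 and GL000243.1, with medians of 5.23 to 7.47 times. High background on an unlocalised contig was found on GL000199.1, of chromosome 9, singled out after its values had been seen. Its region from 168196 to 168476 had folds of 1.86, 1.76 and 1.8 in replicates 2, 3 and 4 over 191 to 193 times the genome level and was not called in replicate 1.

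JH636052.4 held 65 peaks in 34 regions, and its peaks were of 2 sorts. Between 8127 and 80097 lay 29 peaks with 211 to 377 times the genome level, folds of 1.3 to 2.23 and 208 to 446 reads at the summit. They were 29 of the 43 peaks of the class with at least 50 times, and numbered 3, 14, 5 and 7 in replicates 1 to 4. The other 36 peaks, between 787411 and 7179546, had backgrounds of 1.00 to 4.01 times, folds of 4.81 to 10.7 and 8 to 27 reads, and numbered 18, 5, 9 and 4. Replicate 1 was thus the lowest in the first stretch and the highest in the second. Among the latter peaks, the region from 4415109 to 4415692 had folds of 7.57, 10.3, 8.32 and 4.92. Folds from 5494955 to 5495511 were 6.74, 7.88, 10.7 and 7.47.

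JH159134.2 had 40 peaks in 21 regions and the strongest peak of its class in 3 of 4 lists. Its region from 764546 to 765086 had folds of 18.7, 9.02, 14.5 and 13.0 (13.8 ± 3.99, SD, n = 4), with 45, 19, 32 and 27 reads over 1.60 to 1.92 times the genome level. The fold of replicate 1 exceeded 99.4% of its chromosome peaks, and replicate 2 was the lowest, as in the strongest region of GL000205.1. The region from 2317864 to 2318414 had folds of 11.8, 10.3, 15.4 and 9.13, with replicate 3 highest. JH159132.1, with 13 peaks, held the strongest peak of replicate 2 in its region from 5543 to 6070, where folds were 13.9, 11.6, 8.76 and 10.4, and a second region from 69120 to 69550 with folds of 8.14, 9.71, 10.3 and 11.6.

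The remaining strong regions of the patch and alternate contigs had summits of 8 to 25 reads, around the median chromosome summit of a list, which held 14 to 16. KB021647.1, from 163968 to 164698, had folds of 12.8, 8.57, 9.13 and 10.4 with 13 to 23 reads over the genome level itself. In JH159142.2, from 178898 to 179407, folds were 10.6, 9.71, 7.01 and 6.48 with 13 to 25 reads. GL383519.1, from 82168 to 82543, had folds of 6.95, 11.0, 8.32 and 5.08 with 8 to 17 reads. JH806602.1, the third of its class by number of peaks, had 24 peaks in 17 regions between 5138 and 49642, with folds of 3.16 to 8.12. Of its 24 peaks, 14 came from replicate 1, and no region was called in every list. GL000258.1, an alternate haplotype of chromosome 17, had 15 peaks in 9 regions, of which 1, from 9349 to 10140, was called in every list with folds of 7.71, 5.51, 6.28 and 5.80. In JH159150.3, 14 peaks lay in 9 regions, with folds of 7.48, 7.35, 6.85 and 6.38 in the region from 1775923 to 1776279.

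Alternate haplotypes were also looked at by the stretch they stand for, a choice made after the values had been seen. The leukocyte receptor complex of chromosome 19, a cluster of immune receptor genes, was met on GL949746.1 and GL949752.1. On GL949746.1 the region from 164483 to 165745 had folds of 8.12, 7.96, 9.13 and 6.48 with 12 to 19 reads, taking the strongest peak of each list among its 7. On GL949752.1 the region from 164588 to 165272, nearly the same distance from the start of its contig, had folds of 7.31, 5.34, 8.56 and 4.63 with 9 to 17 reads. Both were called in all 4 lists, and of the 5 regions on these 2 contigs 4 (80%) were called in at least 2. The major histocompatibility complex (MHC) of chromosome 6, which holds the HLA genes, gave 17 peaks on 6 haplotype contigs, with 12, 1, 4 and 0 in replicates 1 to 4. Their summits held 7 to 12 reads, and 14 of the 17 had a background at the genome level. Of their 13 regions 3 (23.1%) were called in at least 2 lists, against 40.4% in the class and 47.3% over all contigs. The best supported lay from 4610274 to 4610843 on GL000255.1, with folds of 5.35, 6.12 and 6.10 in replicates 1, 2 and 3.

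Support over the lists was higher on the unlocalised and unplaced contigs than on the patch and alternate contigs. A peak was supported when a peak of another list overlapped it by at least 1 bp. This held for 40 of 49, 25 of 27, 35 of 39 and 33 of 36 peaks of the first class in replicates 1 to 4 (81.6%, 92.6%, 89.7% and 91.7%) and for 44.9%, 82.8%, 83.3% and 85.9% of those of the second. Over all contigs the shares were 52.9%, 92.6%, 84.1% and 90.0%. The first class lay above the second by 36.7, 9.83, 6.41 and 5.75 percentage points (14.7 on average, exact sign-flip permutation p = 0.13), and the difference in replicate 1 was the largest. Without replicate 1 it was 7.88 percentage points. With 1746 peaks taken from each list by −log10 q it was 8.11 percentage points (exact sign-flip permutation p = 0.25). Among peaks with a background under 5 times the genome level the difference turned to -39.3 percentage points, over 3 lists with 4, 5 and 1 peaks of the first class. From 2.5 to under 10 times, the first class was higher than the second in 4 of 4 lists. It had 17, 5, 14 and 8 peaks in that band in replicates 1 to 4. Over the lists, 39 of 44 peaks (88.6%) were supported, against 32 of 46 (69.6%) of the second class and 75.1% on chromosomes. Per list the first class had 82.4%, 100%, 85.7% and 100%, and the chromosomes 57.5%, 94.7%, 87.7% and 95.1%. All 14 peaks of GL000205.1 lay in this band, and each of its 4 regions was called in at least 2 lists. Against the chromosomes, the unlocalised and unplaced contigs were higher in 3 of 4 lists (8.95 percentage points on average, exact sign-flip permutation p = 0.25), and the patch and alternate contigs were lower in 4 of 4 (by 0.672 to 10.2 percentage points, exact sign-flip permutation p = 0.13).

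Merging overlapping peaks of all lists gave 62 regions on unlocalised and unplaced contigs and 245 on patch and alternate contigs. Of the 62, 44 (71.0%) were called in at least 2 lists and 16 (25.8%) in all 4. Of the 245, 99 (40.4%) were called in at least 2 and 23 (9.39%) in all 4. Over all contigs of the series 47.3% of regions were called in at least 2 lists and 12.0% in all 4, so the second class lay a little under that level and the first above it. Regions seen in 1 list numbered 18 and 146, of which 9 (50%) and 109 (74.7%) came from replicate 1, the longest list, against 77.0% on chromosomes. With 1746 peaks taken from each list by −log10 q, 26 and 40 regions were called in at least 2. The number of regions left in each class is not given here, so these counts cannot be set against the shares above. Taking peaks by −log10 q also favours the unlocalised and unplaced contigs, whose mean over the lists of the median −log10 q was 9.16, against 6.88.

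Over merged regions, support was higher where the background was high, but by peaks this did not hold in every list. In replicate 2, 57.9% of patch and alternate peaks with at least 50 times the genome level were supported, against 97.0% of those under 2.5 times. On chromosomes the shares of replicate 2 were 82.5% and 92.5%. In replicates 1, 3 and 4 the share at high background was the higher of each such pair. Of the 54 contig regions with a median background of at least 50 times the genome level, 39 (72.2%) were called in at least 2 lists, against 104 of 253 (41.1%) of the others, and on chromosomes the shares were 78.8% and 47.0%. For unlocalised and unplaced contigs they were 79.4% and 60.7%, and for patch and alternate contigs 60% and 38.7%. Of the 20 patch and alternate regions of high background, 14 lay in 1 stretch of JH636052.4. The lists that called regions of high and of lower background differed too. Regions of high background were called 30, 40, 27 and 36 times in replicates 1 to 4, and the others 217, 43, 112 and 69 times. Among those of high background, 11 were called in at least 2 lists but not in replicate 1, against 3 of the 253 others. On chromosomes the same held for 15 of 52 and 120 of 7468. Such a region lay on KE332502.1 from 91499 to 92041, with folds of 1.52, 1.44 and 1.43 in replicates 2, 3 and 4, and another on GL383529.1 from 5267 to 5599, with 1.74 and 1.82 in replicates 2 and 4, both named after their values had been seen.

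**Figure D4:**
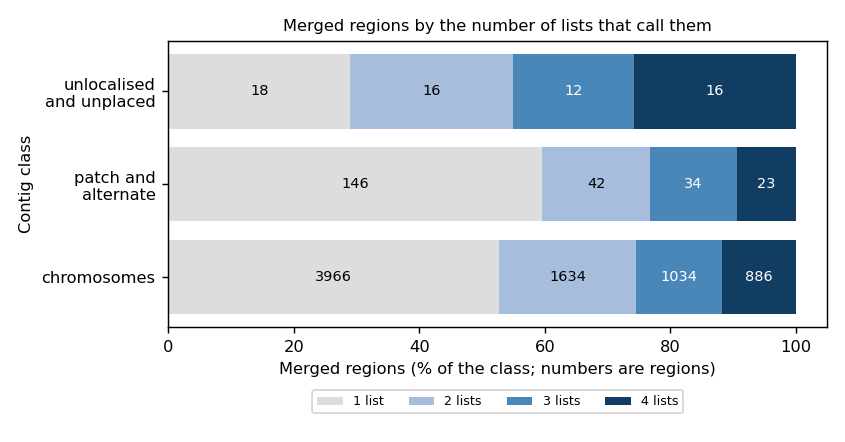
Share of merged regions (x axis, percent of the class) called in 1, 2, 3 or 4 lists for each contig class (y axis), with the number of regions printed in each bar. Regions in at least 2 lists make up 71.0% on unlocalised and unplaced contigs and 40.4% on patch and alternate contigs, on either side of the chromosomes.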

How the data were processed

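BG4 pull-downs of 4 replicates and 1 input were sequenced. The tools, per the submitters' processing notes, were MACS2 2.1.1, SAMtools 1.11, Bowtie2 2.2.5 and bcl2fastq 1.8.4, with the build hg19, and no source used here states their settings. From these the authors deposited 1 peak list per replicate, with position, a whole-number score (not used), the fold at the summit as a ratio, and the −log10 p and −log10 q. The lowest −log10 q of a list was 1.30 to 1.37.

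Summit reads and background were recovered per peak, taking fold as (reads + 1) / (background + 1) and p from a Poisson tail. All peaks returned the deposited −log10 p within 0.001, and 100% of 2888 simulated summits were recovered. The simulated summits were made with the same formulas, so they check the computation only and not whether the formulas hold for the deposited peaks. Total depth per sample is not in the lists. Classes were compared within each list and tested over lists. The lists of named contigs (5 with most peaks per class), regions (10 per class, by number of lists, then fold) and top peaks per list, like the members, were chosen with earlier results of these data known. One planned description, of patch peaks against chromosome peaks at matching coordinates, was not run because coordinates are local to contigs. Alternatives were stricter −log10 q, other overlaps, equal lists, other measures and single replicates left out. Computation used scipy 1.17.1, pandas 2.3.3 and numpy 2.4.6 under Python 3.11.15, and figures matplotlib 3.10.9.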

Additional observations from a re-analysis of the deposited data

Results flagged for a closer look

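In replicate 1, 44.9% of the peaks on patch and alternate contigs were also called in another list, far from the other 3 replicates, the nearest of which had 82.8%. The test of a single distant sample was run 40 times, on 4 values each, and chance alone gives about 1 in 20 such calls. Chromosome peaks of replicate 1 were likewise lowest, at 52.8%.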

How the results depend on the processing

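The alternatives that left out GL000226.1 or JH636052.4 or kept backgrounds of 2.5 to under 10 or of at least 50 times the genome level were added after seeing the data. The lower fold on unlocalised and unplaced contigs (0.359 times) was 0.336 to 0.372 with 1 replicate left out. It turned to 1.31 with −log10 q as the measure, to 1.07 with backgrounds under 5 times the genome level (3 lists, since replicate 2 had no such peak on these contigs) and to 1.09 with at least 50 times, and the cause was not tested. The background ratio of 59.0 was 52.2 to 68.8 with 1 replicate left out. The width ratio of 1.00 was 0.956 with −log10 q of at least 5, 0.967 without GL000226.1, 1.39 with backgrounds under 5 times (3 lists) and 0.996 to 1.02 with 1 replicate left out. The difference in supported peaks of 14.7 percentage points was 7.88 to 17.1 with 1 replicate left out. It was 8.11 with lists of equal length (exact sign-flip permutation p = 0.25) and -39.3 with backgrounds under 5 times (3 lists, with 4, 5 and 1 peaks of the first class). Regions in at least 2 lists, 44 and 99, became 26 and 40 with lists of equal length, 28 and 57 in at least 3 lists and 16 and 23 in all 4, fewer by construction, and were 30 to 41 and 66 to 90 with 1 replicate left out. Mean peak numbers were 34 to 41.3 and 77 to 124. Of 20 named regions, 14 kept their number of lists with −log10 q of at least 5 and 18 with at least 3. No paired analysis was possible because all the pull-downs belong to 1 group, so that no groups of samples could be paired by replicate number, and the contig classes were compared within each list throughout. The weakest summits on patch and alternate contigs held 6 to 8 reads, which limits the precision of their folds.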
